A study of Mus musculus with 12 samples.

Results

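The Zfp genes are mouse genes whose symbol is Zfp followed by a number, a nomenclature group of zinc finger proteins. They were taken from the deposited expression table as every gene whose symbol consists of Zfp and digits alone, leaving out 2 such symbols, which gave 304 of the 12809 genes listed. Expression had been measured by RNA-seq in T cells sorted from lymph nodes (LN) of female mice, as 4 groups of 3 libraries. C57BL/6 (B6) mice were 10 weeks old and gave the B6 CD4 and B6 CD8 T cells, and FlipFlop mice were 14 weeks old and gave the FlipFlop CD4 and FlipFlop CD8 T cells. FlipFlop mice carry altered coreceptor gene loci on both copies of chromosome 6: their Cd8a loci encode CD4 protein (the Cd8CD4 allele, from the earlier 4in8 mice, which the study traces to an embryonic stem cell line of mouse strain 129) and their Cd4 loci encode CD8αβ.1 protein (the Cd4CD8 allele, from 8in4 mice made with B6 embryonic stem cells), brought together by a crossover. The study asked whether lineage fate depends on the coreceptor gene locus or on the protein it encodes, so B6 CD4 and FlipFlop CD8 T cells (from cells that use the Cd4 locus) are called the helper lineage here, and B6 CD8 and FlipFlop CD4 T cells (from cells that use the Cd8a locus) the cytotoxic lineage. Strain and age changed together between B6 and FlipFlop mice, so the effects of the altered loci, of strain 129 DNA that the study says FlipFlop mice retain and of age cannot be told apart in any comparison of strains.

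Most Zfp proteins bind DNA through C2H2 zinc fingers, short loops held by a zinc ion between a pair of cysteines and a pair of histidines, and arrays of such fingers read long DNA sequences. A large share of them also carry a KRAB domain, which recruits the corepressor TRIM28 and, through it, the histone methyltransferase SETDB1 and heterochromatin proteins, and many of these silence retroelements. Others have no such domain and act as activators, as splicing or ubiquitin ligase factors or, in the case of the CCCH finger protein Zfp36, on mRNA stability. In T cells the zinc finger proteins best known for lineage choice carry other names, among them ThPOK (Zbtb7b), so the Zfp genes form a broad set of which few members have an assigned function in T cells.

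The values are read counts scaled to library totals (CPM) that the authors scaled by TMM. A coding sequence was annotated for 302 of the 304 genes. The median was 11 C2H2 fingers per longest annotated protein, with a range of 0 to 36. A KRAB letter pattern (aspartate, valine, 3 residues, phenylalanine or leucine, 3 residues, glutamate or aspartate, tryptophan) was found in 150, and 177 had either this or a second stretch typical of the domain. The genes lay on 20 chromosomes, with 80 on chromosome 7, 36 on chromosome 17 and 27 on chromosome 13. Their mean level over the 12 libraries ran from 0.208 to 181 CPM with a median of 9.53 CPM, compared with a median of 20.6 CPM over the whole table, and 11 members were above 100 CPM. Of the 304 genes, 286 reached 1 CPM in at least 3 libraries and were tested. The 18 that did not had mean levels of 0.208 to 0.680 CPM.

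Per kb of annotated exon, the 5 highest members were Zfp36 at 52.1, Zfp740 at 32.7, Zfp706 at 26.7, Zfp207 at 20.9 and Zfp869 at 17.5 CPM per kb, means over all 12 libraries. Zfp36 is tristetraprolin, which binds AU-rich elements and hastens the decay of cytokine mRNAs, and Zfp207 (BuGZ) helps chromosomes align in mitosis. Zfp740, Zfp706 and Zfp869 passed no comparison: their group means lay at 158 to 173, at 122 to 144 and at 26.9 to 28.8 CPM.

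Each contrast was fitted across all 11595 genes tested with limma on log2(CPM + 0.5), where a fold change of a low gene is understated, and a gene was called at a Benjamini-Hochberg adjusted p under 0.05 over all of them. A member followed lineage when it was called the same way in B6 (CD4 minus CD8) and in FlipFlop mice (CD8 minus CD4), contrasts that share no library. It differed by strain in both lineages when it was called the same way in FlipFlop CD8 minus B6 CD4 (helper) and in FlipFlop CD4 minus B6 CD8 (cytotoxic). Replicate numbers in the labels are not said to be separate mice, so p-values measure only the spread between these libraries. Deviations from group means correlated at 0.271 to 0.513 between FlipFlop CD4 and CD8 libraries of the same number, and 0.0887 to 0.352 in B6. The main fit did not pair them, and whether the spread is between mice or technical was not tested.

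The 5′ flanks of 3 members that followed lineage are shown because Zfp467 and Zfp296 had the steepest and oppositely directed differences among followers whose RefSeq start site matches a GENCODE transcript, while Zfp239 was the only one of the 12 followers with a RefSeq start site whose flank holds the RUNX letters, Runx3 being the factor that silences Cd4 in cytotoxic T cells. RefSeq start sites (GRCm38.p6) were found for 251 of the 304 members, in 302 windows of 250 bases before the start. TGTGGT or its reverse complement ACCACA was present in 14.0% of all 32851 such windows, in 12.6% of the members' windows, in 0 of the 7 windows of 4 followers higher in the helper lineage and in 2 of the 9 windows of 8 followers lower in it, both of Zfp239. AGATAA or TTATCT, read by GATA factors such as Gata3, was present in 9.99% of all windows and in 6.29% of the members' windows. Capitals mark those letters on either strand, and the sequences of Zfp467 and Zfp296 hold neither. A match says only that the letters are in the window. Neither of the 2 RefSeq start sites of Zfp239 matches a GENCODE transcript. Its printed window lies inside the gene as GENCODE places it (chr6:117862100-117873291), so it is not a 5′ flank in that annotation.
Zfp467, 250 bases upstream, minus strand of chr6:48445091-48445340: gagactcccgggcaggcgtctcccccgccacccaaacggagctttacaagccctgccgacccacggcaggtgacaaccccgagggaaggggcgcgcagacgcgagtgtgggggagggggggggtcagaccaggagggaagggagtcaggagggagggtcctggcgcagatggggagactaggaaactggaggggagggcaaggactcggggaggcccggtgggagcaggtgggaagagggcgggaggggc
Zfp296, 250 bases upstream, plus strand of chr7:19577037-19577286: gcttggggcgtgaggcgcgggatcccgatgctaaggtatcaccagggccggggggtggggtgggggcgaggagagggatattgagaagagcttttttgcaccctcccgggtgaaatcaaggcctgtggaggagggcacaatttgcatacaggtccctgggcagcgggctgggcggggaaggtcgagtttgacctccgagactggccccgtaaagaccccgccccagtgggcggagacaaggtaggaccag
Zfp239, 250 bases upstream of its second RefSeq start site, plus strand of chr6:117862631-117862880: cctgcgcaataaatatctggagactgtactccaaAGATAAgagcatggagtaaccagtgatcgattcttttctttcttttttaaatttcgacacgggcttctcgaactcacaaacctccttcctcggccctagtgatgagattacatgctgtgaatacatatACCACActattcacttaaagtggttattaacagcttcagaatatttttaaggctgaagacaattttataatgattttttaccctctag

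Few Zfp genes followed lineage. In both strains, 18 of the 286 tested (6.29%) passed, whereas 16.9% of all genes tested passed. Of these, 7 were higher in the helper lineage (10.1% of all genes) and 11 lower (6.88%). Within B6 mice 39 members (13.6%) were called, 17 higher and 22 lower in CD4 T cells (14.6% and 10.8% of all genes), against 25.4% of all genes. Within FlipFlop mice 43 (15%) were called, 20 higher and 23 lower in CD8 T cells (16% and 15.3%), against 31.3%. A further 20 were called in B6 mice alone, 24 in FlipFlop mice alone and 1, Zfp683, in opposite directions, which left 223 (78.0%) called in neither strain, compared with 60.7% of all genes. Of all 11595 genes tested, 928 were called in B6 mice alone, 1617 in FlipFlop mice alone and 51 in opposite directions. Members had lower levels than the table as a whole. Refitted on genes with a mean of at least 5 CPM, the share called was 11.4% of members against 22.2% of all genes in B6 and 10.0% against 27.5% in FlipFlop mice. With the columns rescaled to equal sums in place of TMM the splits became 23 higher and 18 lower in B6, 42 and 10 in FlipFlop, and 13 and 6 for the followers of both. All genes shifted likewise, with 18.1% higher and 7.86% lower in B6, 25.7% and 6.76% in FlipFlop mice and 14% and 3.97% in both.

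**Figure D1:**
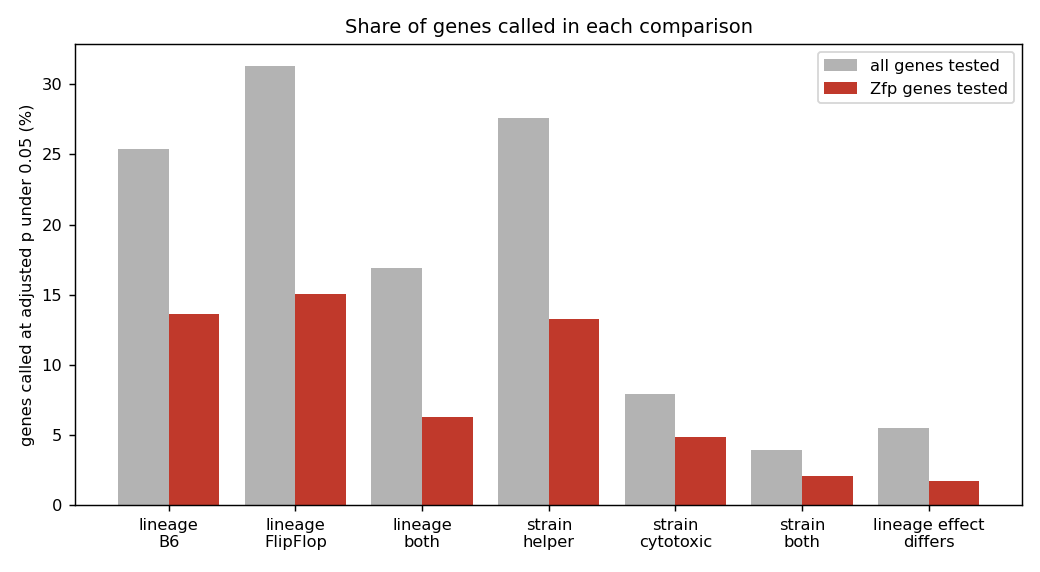
Bars give the percent of genes called at an adjusted p under 0.05 in each comparison, grey for the 11595 genes tested and red for the 286 Zfp genes tested. The red bar is the lower one in every comparison, for example 6.29% against 16.9% for lineage in both strains and 2.10% against 3.92% for strain in both lineages.

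On the log2(CPM + 0.5) scale, the 2 members with the widest lineage difference in the helper direction were Zfp870 and Zfp467. Zfp870 (chr17:32879219-32891642 in GRCm38, minus strand), whose longest annotated protein has 10 fingers and a KRAB pattern, stood at 3.23, 3.07 and 2.696 CPM (B6 CD4), 5.59, 4.86 and 4.77 CPM (FlipFlop CD8), 0.412, 0.1601 and 0.199 CPM (B6 CD8) and 0.263, 0.109 and 0.223 CPM (FlipFlop CD4). The helper libraries were all above the cytotoxic ones, and the lowest cytotoxic value lay at the level of 3 reads. Helper minus cytotoxic, it differed by 2.22 ± 0.16 (log2, SE) within B6 (adjusted p = 6.43e-07) and 3.001 ± 0.16 in FlipFlop mice (adjusted p = 4.78e-08), and it was also 0.67 higher in FlipFlop than in B6 helper cells (adjusted p = 0.01102). With cytotoxic levels this low the size of its lineage difference was set by the pseudocount, running from 3.18 at 0.1 CPM to 1.67 at 1 CPM in B6 and from 4.15 to 2.34 in FlipFlop mice, while the calls held at both. Of the 50-base stretches of its longest transcript, 7.94% occur in transcripts of other genes, here and below read on either strand. This share can include the 438 bases of its exons that are shared with CT033772.1 on the opposite strand.

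Zfp467 (chr6:48427697-48445825, minus strand) is known for favouring fat over bone cells in marrow stroma and has 12 fingers without a KRAB pattern. Its levels were 20.5, 17.1 and 15.6 CPM (B6 CD4), 15.7, 13.4 and 15.6 CPM (FlipFlop CD8), 3.89, 2.601 and 2.35 CPM (B6 CD8) and 4.56, 5.33 and 5.503 CPM (FlipFlop CD4). All helper libraries exceeded all cytotoxic ones, with FlipFlop CD4 above B6 CD8 T cells. It was higher in the helper lineage by 2.42 ± 0.16 in B6 (adjusted p = 2.88e-07) and by 1.45 ± 0.16 in FlipFlop mice (adjusted p = 1.97e-05), both on the log2 scale. It lies on chromosome 6, the chromosome of the altered Cd4 and Cd8a loci, as do the followers Zfp239 and Zfp422. Chromosome 6 held 3 followers among 16 tested members (18.8%), beside 6.29% of all tested members and 16.9% of all genes. Chromosomes 11 and 8 also held 3 each, of 12 and 19 tested, and a link to the altered loci was not tested.

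Zfp41, with 4 fingers in its longest annotated protein, was at 11.6, 16.9 and 16.4 CPM (B6 CD4), 22.6, 22.1 and 23.00 CPM (FlipFlop CD8), 8.68, 9.26 and 8.48 CPM (B6 CD8) and 9.23, 8.69 and 10.8 CPM (FlipFlop CD4). The libraries of the lineages did not overlap, and the FlipFlop CD8 libraries were the highest. It was higher in the helper lineage by 0.72 ± 0.13 within B6 (adjusted p = 0.00119) and by 1.20 ± 0.13 in FlipFlop mice (adjusted p = 1.62e-05). Zfp219, a partner of Sox9 in cartilage cells, was at 20.2, 17.5 and 16.4 CPM (B6 CD4), 18.6, 21.6 and 23.1 CPM (FlipFlop CD8), 10.6, 8.08 and 9.01 CPM (B6 CD8) and 9.26, 10.4 and 11.8 CPM (FlipFlop CD4). It was higher by 0.93 ± 0.13 in B6 (adjusted p = 0.0001600) and by 0.98 ± 0.13 in FlipFlop mice (adjusted p = 8.56e-05), and its strain differences of 0.22 and 0.17 were not called. Its exons overlap those of Tmem253 by 266 bases on the opposite strand.

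The other followers on the helper side differed less. Zfp821 was higher by 0.69 in B6 and 0.93 in FlipFlop mice, Zfp362 by 0.43 and 0.33, and Zfp287 by 0.33 and 0.51 (log2), with 6 helper libraries above 6 cytotoxic libraries for each of them. Zfp287 was the closest to the threshold, with an adjusted p of 0.04802 in B6 mice that became 0.0655 with the replicate block, and its B6 call held in 1 of the 12 fits that each left out a library. The B6 call of Zfp821 was lost in 3 of those 12 fits and the FlipFlop call of Zfp362 in 2. Zfp821 without B6 CD4 replicate 1 had a B6 difference of 0.45 (adjusted p = 0.1005).

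**Figure D2:**
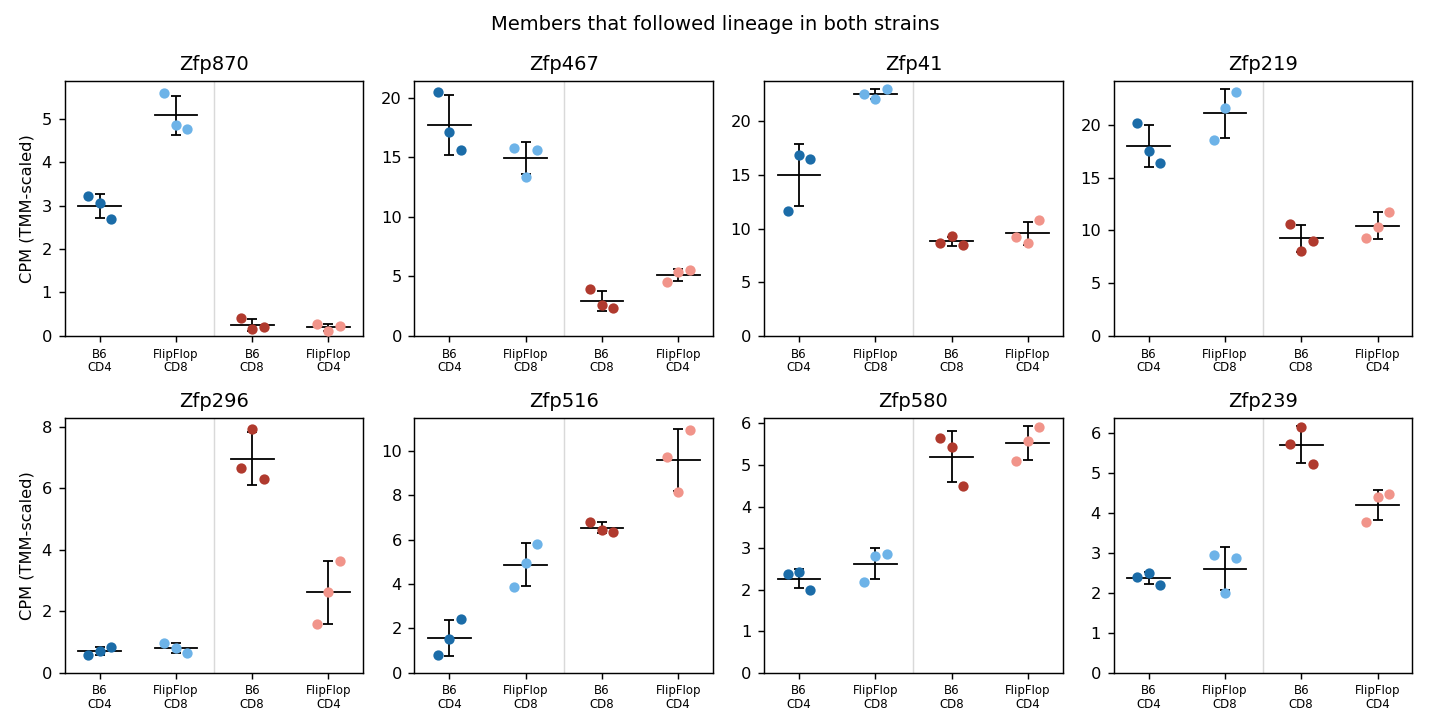
Points are single libraries in CPM on a linear axis from 0, with the group mean and SD in black (n = 3), for 4 members higher (top) and 4 lower (bottom) in the helper lineage. In each panel all 6 helper libraries (blue, left) lie apart from all 6 cytotoxic libraries (red, right).

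Among members lower in the helper lineage, Zfp296 and Zfp516 had the widest differences in B6 mice. Zfp296 (chr7:19577287-19580656, plus strand), a protein of 6 fingers known as a partner of Klf4 in reprogramming, was at 0.564, 0.7102 and 0.827 CPM (B6 CD4), 0.964, 0.794 and 0.629 CPM (FlipFlop CD8), 6.67, 7.92 and 6.29 CPM (B6 CD8) and 1.58, 2.61 and 3.64 CPM (FlipFlop CD4). Helper cells of both strains held it under 1 CPM, and FlipFlop CD4 T cells had less of it than B6 CD8 T cells, with no overlap. It was lower in the helper lineage by 2.64 ± 0.22 in B6 (log2 difference -2.64, adjusted p = 2.31e-06) and had a difference of -1.21 ± 0.22 in FlipFlop mice (adjusted p = 0.00109). Its exons share 263 bases with Gemin7 on the opposite strand. Of its 50-base stretches 14.4% occur in other genes' transcripts on either strand, a share that can include those bases. Some of its reads therefore cannot be assigned with certainty if the counting ignored strand, which is not given in the sources used here.

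Zfp516, known for driving the brown fat programme, was at 0.789, 1.52 and 2.42 CPM (B6 CD4), 3.86, 4.96 and 5.801 CPM (FlipFlop CD8), 6.82, 6.44 and 6.36 CPM (B6 CD8) and 9.72, 8.15 and 10.9 CPM (FlipFlop CD4). All helper libraries were below all cytotoxic ones, although FlipFlop CD8 T cells held more than B6 CD4 T cells. By lineage it differed by -1.84 ± 0.24 within B6 (adjusted p = 0.000108) and -0.92 ± 0.24 in FlipFlop mice (adjusted p = 0.0119), and the helper cells of FlipFlop mice exceeded those of B6 mice by 1.43 ± 0.24 (adjusted p = 0.001601).

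Zfp580, a protein of 3 fingers, was at 2.37, 2.42 and 1.99 CPM (B6 CD4), 2.19, 2.81 and 2.86 CPM (FlipFlop CD8), 5.65, 5.44 and 4.51 CPM (B6 CD8) and 5.09, 5.58 and 5.91 CPM (FlipFlop CD4). Here the strains matched closely and the lineages did not overlap, with differences of -1.04 ± 0.13 in B6 (adjusted p = 7.56e-05) and -0.96 ± 0.13 in FlipFlop mice (adjusted p = 0.000123). Zfp239, of which a window is printed above, was at 2.404, 2.49 and 2.21 CPM (B6 CD4), 2.96, 1.98 and 2.86 CPM (FlipFlop CD8), 5.73, 6.16 and 5.23 CPM (B6 CD8) and 3.78, 4.39 and 4.46 CPM (FlipFlop CD4). It was lower in the helper lineage in both strains, with log2 differences of -1.11 (adjusted p = 7.08e-05) and -0.62 (adjusted p = 0.00479).

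Zfp358 had differences of -0.67 in B6 and -0.88 in FlipFlop mice, Zfp286 of -0.72 and -0.63, Zfp202 of -0.71 and -0.59, and Zfp827, a telomere-binding protein, of -0.84 and -0.45 (log2). Zfp286 was low, with means of 0.881 ± 0.288 CPM (SD, n = 3) for B6 CD4 and 1.76 ± 0.388 CPM (SD, n = 3) for B6 CD8, and its calls were lost in 2 of 12 leave-one-out fits in B6 and in 4 of 12 in FlipFlop mice. The FlipFlop call of Zfp827 was lost in 3 of 12 (FlipFlop CD8 replicates 1 and 2 and FlipFlop CD4 replicate 3) and that of Zfp516 in 1 (FlipFlop CD8 replicate 1). The remaining 3 followers were Zfp422, Zfp652 and Zfp593, with differences of -0.56, -0.44 and -0.36 in B6 and of -0.66, -0.55 and -0.55 in FlipFlop mice (log2). Their FlipFlop calls held in all 12 fits, and their B6 calls in 12, 11 and 4. In 9 of the 15 followers ranked as the widest, both calls held in all 12 fits that left out a library: Zfp870, Zfp467, Zfp41, Zfp219, Zfp296, Zfp580, Zfp239, Zfp358 and Zfp202.

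**Figure D3:**
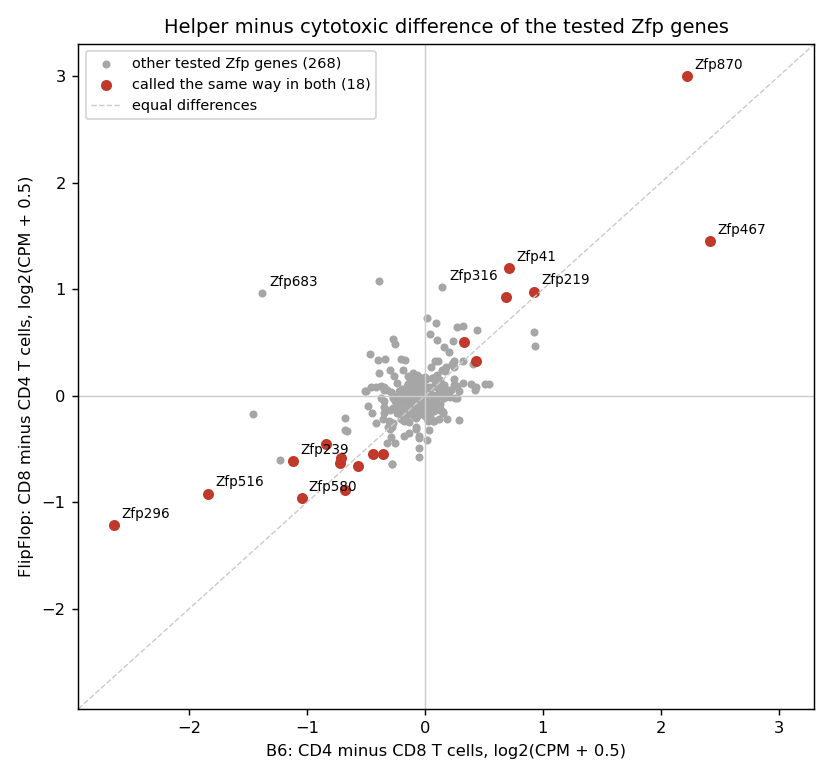
Each point is 1 of the 286 tested Zfp genes, with the B6 lineage difference on the x axis and the FlipFlop lineage difference on the y axis, both as log2(CPM + 0.5). The 18 followers (red) lie to the lower left and upper right, from Zfp296 at -2.64 and -1.21 to Zfp870 at 2.22 and 3.001, while Zfp683 lies alone in the upper left at -1.38 and 0.96.

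Across the 286 members the B6 and FlipFlop lineage differences had a Pearson correlation of 0.635, and across all tested genes 0.729. This is a description across genes, which share their libraries and are not independent. Differences over 2-fold were rare: 9 members (3.15%) in B6 mice and 6 (2.10%) in FlipFlop mice, against 7.84% and 9.23% of all genes tested. The median absolute log2 difference was 0.14 in members in each strain and 0.17 and 0.19 in all genes.

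The followers were mostly members without a KRAB pattern. Both strains called 2 of the 141 tested members with the pattern (1.42%), Zfp870 and Zfp286, and 16 of the 143 without it (11.2%), beside the 16.9% of all genes. Both classes lay below the background. With the second KRAB stretch counted as well, the counts were 2 of 164 and 16 of 120. Members with the pattern had lower levels (a median of 6.76 against 22.2 CPM under the wider definition). Those with a mean of at least 5 CPM still differed in level, with medians of 12.8 CPM with and 26.1 CPM without it. Among them, the limma fit of all 11595 genes called 0 of 107 with and 11 of 102 without it, or 5 and 16 at unadjusted p under 0.05 in both strains. Of all genes with a mean of at least 5 CPM, 14.7% were called. Members with 15 or more fingers held 0 followers of 57 tested, those with 10 to 14 held 5 of 102, those with 5 to 9 held 9 of 81, those with 1 to 4 held 4 of 38 and those with none held 0 of 6. In the classes with 15 or more fingers and with none, 1 each passed at unadjusted p under 0.05 in both strains, as did 22.7% of all genes. No test was made of these shares.

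Markers of regulatory T cells moved with lineage too, and their part in these results was not tested. All 10 markers listed were called higher in the helper lineage in both strains, their CPM summing to 521 to 624 (B6 CD4) and 1229 to 1432 (FlipFlop CD8), against 73.4 to 77.99 (B6 CD8) and 80.3 to 86.5 (FlipFlop CD4). Summed memory and effector markers were at 416 to 547 CPM for B6 CD4, 1345 to 1434 CPM for B6 CD8, 652 to 727 CPM for FlipFlop CD4 and 935 to 1351 CPM for FlipFlop CD8 libraries. Of 10 myeloid markers listed, 6 were tested. Of these, 2 were called higher and 1 lower in the helper lineage in B6 (median log2 difference 0.61) and 4 higher in FlipFlop mice (1.11). Their sums were 28.5 to 43.5 CPM for B6 CD4, 35.2 to 52.4 CPM for FlipFlop CD8, 12.9 to 26.8 CPM for B6 CD8 and 10.02 to 11.96 CPM for FlipFlop CD4 libraries. Of 9 naive T cell markers, 1 was called higher and 1 lower in B6 and 5 were called lower in FlipFlop mice. As a check of the labelled cell type, 10 T cell markers summed to 4870 to 6700 CPM over all libraries and 12 B cell markers to 85.7 to 224 CPM. In bulk samples a smaller share of cells of one kind and less RNA per cell cannot be told apart.

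Strain was the second question, and 6 members differed between FlipFlop and B6 mice in both lineages, 2 higher in FlipFlop mice (2.21% of all genes) and 4 lower (1.71%). Together they are 2.10% of the 286 tested, against 3.92% of all genes. With the replicate block the count was 10 (4 higher, 6 lower, with the same 6 among them) and 5.24% of all genes were called. For strain that block joined same-numbered libraries of B6 and FlipFlop mice, a pairing the labels do not give. In the helper lineage 38 members (13.3%) were called, 19 higher and 19 lower in FlipFlop mice (13.2% and 14.4% of all genes), against 27.6% of all genes. In the cytotoxic lineage 14 (4.90%) were called, 4 higher and 10 lower in FlipFlop mice (4.17% and 3.75% of all genes), against 7.92%. The helper split depended on the scaling: with columns rescaled to equal sums, 64 members were called, 60 of them higher in FlipFlop mice (24.7% of all genes were then called higher and 4.75% lower), while the median of all genes moved from -0.01 to 0.15 (log2). Cell type markers moved in the same contrasts, and their part in these counts was not tested. In FlipFlop against B6 helper cells, 10 of 10 regulatory T cell and 6 of 11 memory and effector markers were called higher, while 7 of 11 B cell (median log2 difference -0.80), 6 of 10 T cell, 4 of 9 naive and 3 of 4 erythroid markers were called lower. In cytotoxic cells 5 of 10 regulatory T cell markers were called higher in FlipFlop mice, and 4 of 11 memory and effector markers and 1 of 4 erythroid markers lower. A total of 31 members were called in the helper lineage alone, 7 in the cytotoxic lineage alone, 1 in opposite directions and 241 (84.3%) in neither. Of all 11595 genes tested the same counts were 2657, 379, 85 and 8020 (69.2%).

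Zfp46 (chr4:136284683-136293942, plus strand), with 12 fingers, had the widest strain difference of the 6. It stood at 14.7, 19.8 and 20.6 CPM (B6 CD4), 5.75, 6.65 and 6.77 CPM (FlipFlop CD8), 23.1, 17.8 and 17.8 CPM (B6 CD8) and 4.99, 6.12 and 6.58 CPM (FlipFlop CD4). Every FlipFlop library was below every B6 library in both lineages. The FlipFlop minus B6 difference was -1.44 ± 0.15 in helper (adjusted p = 6.87e-05) and -1.65 ± 0.15 in cytotoxic cells (adjusted p = 2.37e-05), with lineage differences of -0.09 and 0.11 that passed no test.

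Zfp213 (chr17:23556767-23564238, minus strand), with 5 fingers, was at 15.3, 14.7 and 16.6 CPM (B6 CD4), 9.06, 9.09 and 10.6 CPM (FlipFlop CD8), 15.8, 15.7 and 16.1 CPM (B6 CD8) and 9.46, 9.06 and 11.7 CPM (FlipFlop CD4). The strains did not overlap, with differences of -0.67 ± 0.10 in helper (adjusted p = 0.000916) and -0.64 ± 0.10 in cytotoxic cells (adjusted p = 0.002405). Its reads are the least certain of the 6, since 52.3% of its 50-base stretches occur in transcripts of other genes on either strand. That share can include the 1250 bases of its exons that are shared with Gm26695 on the opposite strand. Of the 29 tested genes outside the Zfp set within 1 Mb of it, 11 also differed by strain in both lineages (2 higher and 9 lower in FlipFlop mice).

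Zfp493 (chr13:67779693-67792512, plus strand), with 11 fingers, was at 2.78, 3.84 and 4.31 CPM (B6 CD4), 1.96, 2.13 and 1.91 CPM (FlipFlop CD8), 4.23, 4.92 and 4.42 CPM (B6 CD8) and 2.23, 2.61 and 2.55 CPM (FlipFlop CD4). It was lower in FlipFlop mice by 0.71 in helper (log2 difference -0.71, adjusted p = 0.004603) and its cytotoxic difference was -0.76 (adjusted p = 0.00579). Of the 14 tested non-member genes within 1 Mb of Zfp493, 4 differed by strain in both lineages, 1 of them one of the 2 Zfp symbols left out of the set, and the same count was 2 of 23 around Zfp46, 1 of 10 around Zfp937, 0 of 4 around Zfp677 and 0 of 5 around Zfp369 (at unadjusted p under 0.05 by limma, 5, 2, 0 and 1 in that order). The background for these neighbours is 3.92% of all tested genes, or 11.3% at unadjusted p, and neighbours are not independent of one another.

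Zfp937 (chr2:150218073-150240725, plus strand), with 14 fingers and a KRAB pattern, was the lowest of the 6, at 2.88, 4.61 and 4.34 CPM (B6 CD4), 1.47, 2.05 and 1.37 CPM (FlipFlop CD8), 2.65, 3.88 and 2.57 CPM (B6 CD8) and 1.56, 1.65 and 1.15 CPM (FlipFlop CD4). Its differences were -1.05 ± 0.20 (adjusted p = 0.00379) and -0.85 ± 0.20 (adjusted p = 0.0249). Without B6 CD8 replicate 2 or FlipFlop CD4 replicate 3 the cytotoxic call was lost, with an adjusted p of up to 0.118, and 31.51% of its 50-base stretches occur in transcripts of other genes.

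The pair higher in FlipFlop mice was Zfp369 and Zfp677, both with a KRAB pattern. Members differing by strain in both lineages were 3 of 141 tested with the pattern and 3 of 143 without it. With the second KRAB stretch counted as well, as in Zfp46 and Zfp493, they were 5 of 164 and 1 of 120. No test was made of these shares, and 3.92% of all genes differed so. Zfp369 (chr13:65278814-65304221, plus strand) was at 14.2, 17.1 and 18.8 CPM (B6 CD4), 29.1, 25.3 and 30.7 CPM (FlipFlop CD8), 16.7, 18.3 and 17.7 CPM (B6 CD8) and 29.1, 24.9 and 27.1 CPM (FlipFlop CD4). Each FlipFlop library exceeded each B6 library, with differences of 0.75 ± 0.11 in helper (adjusted p = 0.000623) and 0.61 ± 0.11 in cytotoxic cells (adjusted p = 0.004497). Zfp677 (chr17:21383748-21399265, plus strand) was at 7.14, 7.88 and 8.700 CPM (B6 CD4), 11.6, 14.1 and 15.3 CPM (FlipFlop CD8), 6.404, 6.88 and 7.79 CPM (B6 CD8) and 9.42, 9.02 and 10.97 CPM (FlipFlop CD4). The strains did not overlap, but the cytotoxic difference of 0.45 ± 0.12 (adjusted p = 0.0448) kept its call in only 4 of 12 leave-one-out fits, whereas the helper difference of 0.75 ± 0.12 kept it in all 12 (adjusted p = 0.00144). Zfp677 was also higher in FlipFlop CD8 than in FlipFlop CD4 T cells, by 0.46 (adjusted p = 0.0142), a call lost without FlipFlop CD4 replicate 2 or FlipFlop CD8 replicate 2 or 3 (adjusted p up to 0.0691).

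**Figure D4:**
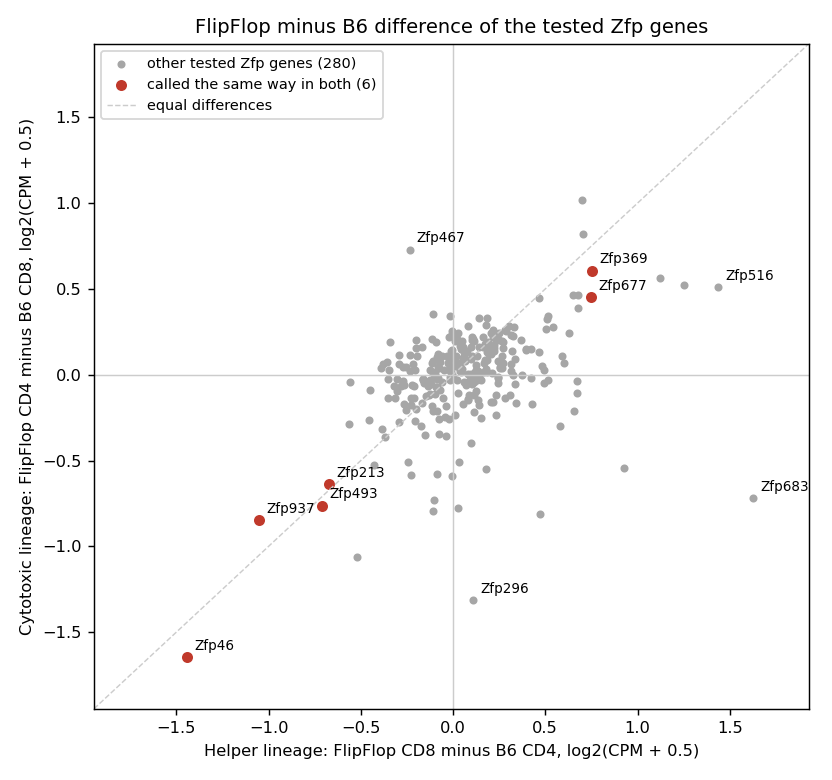
Each point is 1 of the 286 tested Zfp genes, with the FlipFlop minus B6 difference in the helper lineage on the x axis and in the cytotoxic lineage on the y axis, both as log2(CPM + 0.5). Zfp46, Zfp937, Zfp493 and Zfp213 lie to the lower left and Zfp677 and Zfp369 to the upper right, while Zfp683 is at 1.63 and -0.72 and Zfp296 at 0.11 and -1.31.

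A smaller group of members had a lineage difference that itself differed between the strains. The difference of the differences (FlipFlop minus B6) was called for 5 members (1.75%), against 5.49% of all genes, 3 of them positive (3.78%) and 2 negative (1.71%). Zfp683 (chr4:134053838-134058996, plus strand) encodes Hobit, a transcription factor of tissue-resident lymphocytes. It was at 0.338, 0.516 and 0.398 CPM (B6 CD4), 2.38, 2.15 and 2.46 CPM (FlipFlop CD8), 2.51, 1.88 and 1.39 CPM (B6 CD8) and 1.05, 1.12 and 0.706 CPM (FlipFlop CD4). B6 CD4 T cells held the least, FlipFlop CD8 T cells and B6 CD8 T cells overlapped at the top, and FlipFlop CD4 T cells lay between. By lineage it differed by -1.38 ± 0.19 within B6 (adjusted p = 0.000124) and 0.96 ± 0.19 in FlipFlop mice (adjusted p = 0.00168), so the sign turned, and the difference between them was 2.35 ± 0.26 (adjusted p = 0.000318). Higher levels went with the CD8 label in both strains. The memory and effector markers moved alongside it, with 7 of 11 tested called for the same difference of differences, all in its direction. So were 4 of 10 regulatory T cell and 1 of 2 natural killer cell markers. Called the opposite way were 3 of 10 T cell and 2 of 9 naive markers. The part of all these markers in the Zfp683 values was not tested.

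Zfp36 was at 235, 225 and 227 CPM (B6 CD4), 172, 162 and 191 CPM (FlipFlop CD8), 162, 146 and 165 CPM (B6 CD8) and 151, 159 and 176 CPM (FlipFlop CD4), so the B6 CD4 libraries were the highest of the 12. It was higher in helper than in cytotoxic cells by 0.54 ± 0.08 in B6 (adjusted p = 0.000288), had a difference of 0.11 in FlipFlop mice (adjusted p = 0.352) and a difference between them of -0.43 (adjusted p = 0.0482). Immediate early genes, which dissociation of cells is known to induce, had summed levels of 1293 to 1416 CPM for B6 CD4, 1183 to 1295 CPM for FlipFlop CD8, 932 to 990.4 CPM for B6 CD8 and 1044 to 1099 CPM for FlipFlop CD4 libraries, and their part in the Zfp36 values was not tested.

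Zfp316, a protein of 14 fingers with a KRAB pattern, was at 3.42, 3.196 and 2.36 CPM (B6 CD4), 4.31, 4.56 and 5.17 CPM (FlipFlop CD8), 2.58, 2.52 and 2.78 CPM (B6 CD8) and 2.07, 1.85 and 2.23 CPM (FlipFlop CD4). FlipFlop CD8 T cells were above the other 3 groups, with a lineage difference of 1.02 ± 0.14 in FlipFlop (adjusted p = 9.96e-05) and 0.15 ± 0.14 in B6 mice (adjusted p = 0.498). The other 2 members of this group were Zfp296 and Zfp467, described above, whose lineage difference kept its sign in both strains and was smaller in FlipFlop mice. For Zfp683 the call held in all 12 leave-one-out fits, for Zfp296 in 9, for Zfp316 in 8, for Zfp467 in 5 and for Zfp36 in 2.

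**Figure D5:**
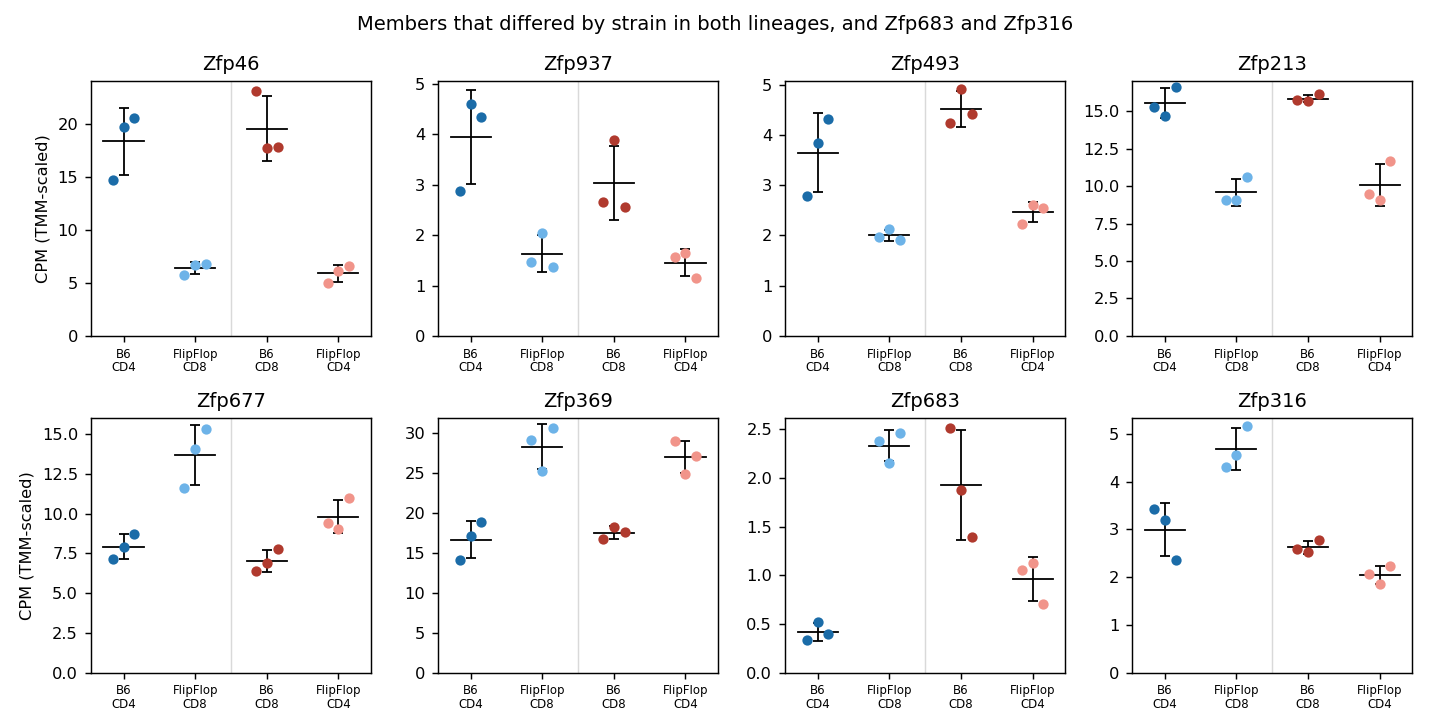
Points are single libraries in CPM on a linear axis from 0, with the group mean and SD in black (n = 3), for the 6 members that differed by strain in both lineages and for Zfp683 and Zfp316. Helper groups are on the left and cytotoxic groups on the right of each panel, and the FlipFlop libraries (pale) lie apart from the B6 libraries (dark) on both sides for the first 6 genes.

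Of 13 members listed for an assigned role, 12 were in the table and tested. By lineage 3 of the 12 were called in B6 mice and 0 in FlipFlop mice (limma, with 1 at an unadjusted p under 0.05), and by strain 1 in helper and 1 in cytotoxic cells, beside the 25.4%, 31.3%, 27.6% and 7.92% of all genes. With 12 genes, these counts show nothing particular to the list. Zfp335, which T cell development depends on, was at 20.6 to 33.9 CPM over all libraries. Zfp91, a ubiquitin ligase of the noncanonical NF-κB pathway, was at 76.3 to 117 CPM, and Zfp281, a pluripotency regulator, at 50.7 to 100.5 CPM. Zfp809, which silences retroviral DNA through TRIM28, was at 10.9 to 15.6 CPM and Zfp445, which guards genomic imprints, at 50.4 to 81.3 CPM. Zfp148, Zfp217 and Zfp410, the last an activator of Chd4, were not called in any of the 4 contrasts either.

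The 4 members of that list with a call were Zfp36, Zfp318, Zfp143 and Zfp207. Zfp36 is described above. Zfp318, which sets the choice between IgM and IgD transcripts in B cells, was at 15.9, 22.05 and 19.9 CPM (B6 CD4), 18.8, 23.4 and 20.3 CPM (FlipFlop CD8), 35.5, 29.6 and 26.7 CPM (B6 CD8) and 22.98, 29.1 and 26.5 CPM (FlipFlop CD4). It was lower in B6 CD4 than in B6 CD8 T cells by 0.66 (log2 difference -0.66, adjusted p = 0.00417), with -0.33 in FlipFlop mice (adjusted p = 0.104), and the difference between these was not called (0.33, adjusted p = 0.411). Zfp143, an activator found at chromatin loop anchors, was higher in B6 CD4 T cells by 0.28 (adjusted p = 0.0116), and Zfp207 was lower in FlipFlop than in B6 cytotoxic cells, with a difference of -0.35 (adjusted p = 0.0124). That call was lost without B6 CD8 replicate 3 or FlipFlop CD4 replicate 2 or 3 (adjusted p up to 0.0579).

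The cofactors through which KRAB proteins act were listed as 27 genes, of which 25 were tested. Trim28, the corepressor itself, had lineage differences of -0.12 in B6 (adjusted p = 0.256) and -0.25 in FlipFlop mice (adjusted p = 0.01300), and Setdb1, the methyltransferase it recruits, differences of -0.04 and -0.06 that were not called. For lineage 3 of the 25 were called in B6 mice (2 higher and 1 lower in the helper lineage) and 6 in FlipFlop mice (4 and 2). By strain 5 were called in helper cells (3 higher and 2 lower in FlipFlop mice) and 3 in cytotoxic cells (2 and 1), and these shares (12% to 24%) stand beside the backgrounds of 25.4%, 31.3%, 27.6% and 7.92%.

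Among other zinc finger families, 7 of 37 tested Zbtb genes were called by lineage in B6, 9 in FlipFlop mice and 6 in both, and 2, 2 and 1 of 17 tested Zscan and Zkscan genes. As shares called in both strains these are 16.2% and 5.88%, beside 6.29% of Zfp genes and 16.9% of all genes, with no test of the difference.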

How the data were processed

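RNA-seq of 12 libraries (4 groups of 3) was analysed from 1 table. According to the study's methods, libraries were made with a low-input SMARTer kit, sequenced as paired ends and aligned with STAR to mm10, whereas the submitters' processing notes name Trimmomatic and TopHat with mm10. The counter, its strand setting, the annotation and any filter are not given in the sources used here. The deposited values are a signal in CPM (read counts scaled to library totals) that the authors scaled by TMM. Columns were matched to samples by their labels, and all 12809 identifiers matched GENCODE M21 (GRCm38). No per-sample column was left unused.

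The 304 Zfp genes, the gene lists and the tests were chosen with earlier results of these data known. Values were tested as log2(CPM + 0.5) with limma 3.58.1 (R 4.3.3, lmFit and eBayes with trend) in 1 fit of all 4 groups with 8 residual degrees of freedom, keeping the 11595 genes that reached 1 CPM in 3 or more libraries (1214 did not), with Benjamini-Hochberg adjustment over all genes tested. Calls had no fold limit. From the steps of low values, 1 read was worth 0.0286 to 0.0400 CPM, or about 26600000 to 33100000 reads on listed genes per library. About 75% to 82% of low values came out as whole reads, so counts were not recovered and no count model was used. The level of 3 reads, 0.0857 to 0.120 CPM, covers counting error only. The fit was checked on simulated data. Zinc fingers (cysteine, 2 to 4 residues, cysteine, 12 residues, histidine, 3 to 5 residues, histidine) and KRAB patterns were counted in translated GENCODE coding sequences. Library profiles correlated at 0.931 to 0.995 and no pair was identical.

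Named genes were the 8 widest each way among members following lineage and among those differing by strain in both lineages, 5 with a difference of differences, the 5 highest per kb and a list of 13 with known roles, of which Zfp57 was not analysed here. Zfp422, Zfp652 and Zfp593 were named after their values were seen. Replicate numbers could pair CD4 and CD8 libraries of a strain: deviations of libraries with the same number correlated at 0.443, 0.271 and 0.513 in FlipFlop but at 0.184, 0.0887 and 0.352 in B6 mice, so the block was kept as an alternative. It was fitted within each strain for lineage, but for strain and the difference of differences it joined the same numbers across both strains. The alternatives were other pseudocounts, filters, scalings, thresholds, fits of 6 libraries, no eBayes, the block and leaving out each library.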

Additional observations from a re-analysis of the deposited data

Results flagged for a closer look

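A search of the members for a lineage difference that itself differed between FlipFlop and B6 mice (limma, adjusted p under 0.05, tested directly as a difference of differences) gave 5 genes. Zfp683 (Hobit) had the largest of them at 2.35 (log2, FlipFlop minus B6), with a lineage difference that was negative in B6 and positive in FlipFlop mice. Zfp296 had 1.42 and Zfp316 had 0.88, so that the helper cells of FlipFlop mice stood higher, relative to their cytotoxic cells, than in B6 mice. Zfp467 had -0.97 and Zfp36 had -0.43, in the opposite direction. These values are contrasts of CD8 with CD4 T cells over both strains as much as of strain with lineage, since the design makes these the same contrast.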

How the results depend on the processing

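Of 65 calls of named genes recomputed under 21 other settings, 1228 results kept direction and call, 103 kept direction but lost the call and 0 reversed. The other 34 had no value, 29 for genes under a mean of 5 CPM and 5 because 6 libraries give no difference of differences. The counts moved more. Refitted with a mean of at least 5 CPM required, fewer genes were tested, and the calls were 24 (lineage in B6), 21 (lineage in FlipFlop), 10 (lineage in both), 8 (strain in cytotoxic cells) and 1 (lineage difference differing). At an unadjusted p under 0.05 with more than 5-fold, the limit in the study's methods, limma left 2, 1 and 0 for lineage in B6, FlipFlop and both, 0, 0 and 0 for strain in helper, cytotoxic and both, and 1 for the differing lineage difference. With more than 1.5-fold they were 20 and 22 for lineage in B6 and FlipFlop and 18 for strain in helper cells. The 0 for lineage in both strains at 5-fold depended on the pseudocount of the main fit. At the lower pseudocount of 0.1 CPM the lineage difference of Zfp870 was above 5-fold in both strains, and its calls held. Strain in helper cells gave 64 with columns rescaled to equal sums and 16 with the 6 libraries of the contrast alone, and the linear model without eBayes left 2 differing lineage differences.

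Leaving out each library in turn gave 28 to 43 (lineage in B6), 30 to 54 (FlipFlop), 14 to 24 (both), 18 to 51 (strain in helper cells), 7 to 26 (cytotoxic), 4 to 10 (both) and 1 to 7 (differing). Strain in helper cells fell to 18 and 19 without FlipFlop CD8 replicates 3 and 2. Strain in cytotoxic cells fell to 7 without B6 CD8 replicate 2 or FlipFlop CD4 replicate 3, to 8 without FlipFlop CD4 replicate 2 and to 9 without B6 CD8 replicate 3, and rose to 26 without B6 CD4 replicate 1, which also took strain in both lineages to 10. The differing lineage differences fell to 1 without FlipFlop CD8 replicate 2, to 2 without any of B6 CD8 replicates 2 and 3, FlipFlop CD8 replicate 1 and FlipFlop CD4 replicate 2, and to 3 without B6 CD4 replicate 1 or FlipFlop CD4 replicate 3.

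The replicate block moved strain in both lineages from 6 to 10 and ended the call of Zfp287 in B6. It moved no other count by over 1.5 times, and no other of the 65 calls recomputed was lost. Calls of Zfp422, Zfp652 and Zfp593 were not among those 65. Rescaling columns to equal sums moved the median of all genes most for lineage in FlipFlop mice, from -0.04 to 0.14 (log2). A group mean of 6 members lay at or under the level of 3 reads, so no fold is given for them. The cause of the moved counts was not tested.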

Other observations

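Cofactors outside the Zfp set held some of the wider differences. Uhrf1, which keeps DNA methylation after replication, was higher in FlipFlop CD8 than in FlipFlop CD4 T cells by 0.97 (log2, adjusted p = 0.00127) and than in B6 CD4 T cells by 1.25 (adjusted p = 0.000569). Hells, a chromatin remodeller of the same process, had differences of 0.52 (adjusted p = 0.0069) and 0.94 (adjusted p = 0.00034). Both tests are limma's, with 3 libraries a group, and were singled out after their values were seen. Hdac1 was called in all 4 contrasts, higher in the helper lineage by 0.27 in B6 and 0.31 in FlipFlop mice, with FlipFlop minus B6 differences of -0.30 and -0.34.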
